A study of Mus musculus with 4 samples.

Results

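Bmp4, Id1, Id2, Id3, Bambi and Smad7 form a short signalling circuit: a secreted ligand, a set of genes that its signal switches on, and a pair of inhibitors that damp the signal. The 6 genes were taken by name from a table of cluster marker genes, and all 6 were found among its 1197 genes. Its 2212 entries each compare 1 gene between 1 of 15 numbered clusters and the rest of the cells. The 6 genes accounted for 26 of these, with 14 listed as higher and 12 as lower in the cluster. Over the whole table, 1305 entries were higher and 907 lower, or 59.0% higher.

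The cells came from mouse embryonic stem cells in which the chromatin remodelling ATPase BRG1 carries a triple FLAG tag, and all 4 libraries share that tagged background. The groups were Brm knockout mesoderm, wild-type mesoderm, Brm knockout cells of the cardiac stage and wild-type cells of the cardiac stage, each a single 10x droplet library of cells at passage 2 to 4 after directed cardiac differentiation. The cardiac stage is named cardiac myocyte in one label and cardiac progenitor in another. The deposited name of the table mentions only the Brm knockout, no column names a library, and the libraries that contributed cells are not stated in the sources used here, so no contrast of genotype or stage was made and no value has a replicate. The sources used here do not say whether the knockout line is 1 clone.

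BMP4 is a secreted protein of the TGF-beta superfamily that binds paired receptor kinases, which phosphorylate SMAD1, SMAD5 and SMAD9. These SMADs enter the nucleus with SMAD4 and switch on the Id genes, whose products bind bHLH transcription factors and keep them off DNA. The same signal induces Bambi, a receptor-like protein without a kinase domain, and Smad7, an inhibitory SMAD, which both weaken signalling. In the mouse embryo, BMP signalling is required to form mesoderm and is used again during heart and nervous system development.

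The promoters of Id2 and Id3 are shown because these genes had the most entries of the 6 and were listed in the same direction in every cluster that listed both. Promoter sequences were matched by symbol for 3 of the 6 genes in a RefSeq table of build GRCm38.p6, which is not the mm9 build of the deposited table. Each sequence runs 5′ to 3′ over the 250 bases that end just before the annotated gene start. That of Id2 lies at chr12:25096093-25096342 on the minus strand, and that of Id3 at chr4:136143572-136143821 on the plus strand. Capitals mark matches on either strand to GGCGCC and GTCT, which are short sequences bound by BMP-activated SMADs, to CCAAT and to TATAA.
Id2: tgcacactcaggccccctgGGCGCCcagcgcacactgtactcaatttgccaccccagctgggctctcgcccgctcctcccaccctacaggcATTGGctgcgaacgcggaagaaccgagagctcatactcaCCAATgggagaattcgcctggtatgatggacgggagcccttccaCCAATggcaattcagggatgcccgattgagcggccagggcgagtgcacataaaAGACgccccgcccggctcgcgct
Id3: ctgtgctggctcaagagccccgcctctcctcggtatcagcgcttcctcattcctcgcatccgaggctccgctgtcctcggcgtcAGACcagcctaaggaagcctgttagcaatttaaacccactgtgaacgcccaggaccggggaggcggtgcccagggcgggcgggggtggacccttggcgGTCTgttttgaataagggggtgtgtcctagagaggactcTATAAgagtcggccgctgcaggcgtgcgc
The Id2 promoter held GGCGCC at 1 place and CCAAT at 3, whereas the Id3 promoter held neither and had TATAA at 1 place. GTCT was found once in Id2 and at 2 places in Id3. Among 32851 promoters of the same length, 9.59% held GGCGCC, 82.9% held GTCT, 33.9% held CCAAT and 22.8% held TATAA. The marked matches to these motifs did not overlap one another, and they describe letters and not bound sites.

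A gene enters the table only if it passes the authors' thresholds. In the authors' deposited table no natural log fold change was nearer to 0 than 0.50, which is 1.65-fold, and the larger of the shares of cells detecting the gene, inside and outside the cluster, was at least 25.1%. The clusters rest on the same measurements, so an entry describes a cluster and is no test of it. The relative sizes of the clusters were solved from the deposited shares, and each gene's level in a cluster was expressed as a ratio to its mean over all cells. Bmp4 was detected in 16.4% of all cells, Bambi in 19.9% and Smad7 in 6.80%. Outside any cluster, their detection could not exceed 19.4%, 23.6% and 8.05%, which all lie under 25.1%. These 3 genes could therefore be listed lower only if at least 25.1% of the cells inside the cluster detected them, and a lack of lower entries says little about them. Id1, Id2 and Id3 were detected in 39.1%, 33.8% and 57.7% of all cells and could be listed in both directions.

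**Figure D1:**
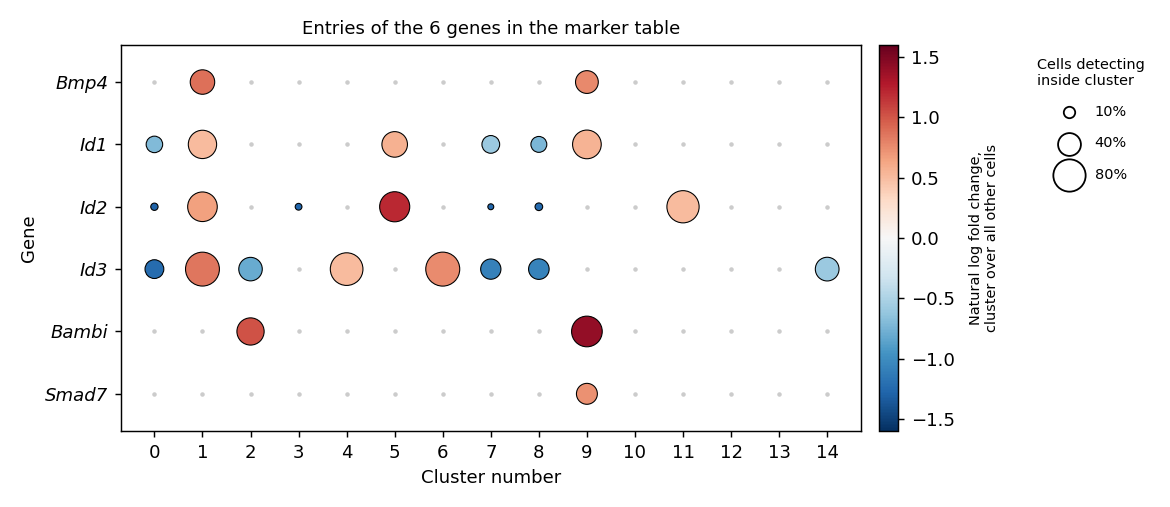
Entries of the 6 genes (rows) in the 15 clusters (columns). Colour gives the natural log fold change of the cluster over all other cells, circle area gives the percentage of cells inside the cluster that detected the gene, and small grey dots mark genes not listed for a cluster. The Id genes are blue together in clusters 0, 7 and 8 and red together in cluster 1, and cluster 9 has red circles for Bmp4, Id1, Bambi and Smad7.

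Bmp4 was listed for 2 clusters, both times as higher. In cluster 1 it was detected in 45.9% of cells inside versus 11.9% outside and was higher by 2.43-fold, in the authors' deposited table. In cluster 9 the shares were 39.8% inside versus 15.6% outside, and the fold was 2.16 in the authors' deposited table. The level over the mean of all cells was nearly the same in both, 2.04 in cluster 1 and 2.08 in cluster 9. Together these clusters made up 16.5% of the cells and held 45.1% of the cells that detected Bmp4. Over the 13 clusters that did not list it, 10.8% of the cells detected it.

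Cluster 1 was neural-progenitor-like by 5 listed markers, with the eye-field factor Rax, the cell cycle inhibitor Cdkn1c and Lmo1 as its leading genes. Here Bmp4 stood beside all 3 Id genes, so 4 of the 6 genes were higher. The share of all listed genes that were higher in this cluster was 3.93%. This and every later share of all genes is taken over the 1197 genes in the table. Id1 was detected in 61.5% of cells inside versus 35.7% outside and was higher by 1.66-fold in the authors' deposited table. Id2, which is also known to hold back neuronal differentiation, was detected in 67.2% of cells inside versus 28.7% outside at 1.92-fold in the authors' deposited table. Id3 was the most widely detected there, in 88.1% of cells inside versus 53.1% outside at 2.35-fold in the authors' deposited table. Of the cells that detected Id1, Id2 and Id3, 20.9%, 26.4% and 20.3% lay in cluster 1, which made up 13.3% of cells. Neither inhibitor gene was listed for cluster 1. An entry for either needed at least 25.1% of cells inside to detect it, so a smaller rise there cannot be seen.

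Cluster 9 held the other 4-gene combination: Bmp4, Id1, Bambi and Smad7 were higher, against 9.61% of all genes in the table. It was mesenchyme-like by 3 listed markers, led by Igfbp7, the smooth muscle gene Tagln and the filament gene Vim, and made up 3.24% of cells. Bambi was detected in 72.1% of its cells inside versus 18.2% outside and was 4.06-fold higher, the largest fold of the 26 entries in the authors' deposited table. Smad7 was listed for no other cluster, at 33.6% of cells inside versus 5.9% outside and 2.08-fold in the authors' deposited table. Of the cells that detected Smad7, 16.0% lay in cluster 9, as did 11.7% of those that detected Bambi. Most Smad7-detecting cells therefore lay outside cluster 9, in clusters where 5.90% of cells detected it. Id1 was detected in 63.1% of cells inside versus 38.3% outside, at 1.75-fold, in the authors' deposited table. Id2 and Id3 were not listed here although both passed the detection threshold, so each differed from the other cells by less than 1.65-fold or missed the table's p-value limit.

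Bambi had its second entry in cluster 2, where Id3 was lower, and this was the single cluster that listed genes of the 6 in opposite directions. Cluster 2 was cardiomyocyte-like, with all 9 cardiomyocyte markers listed higher and Actc1, Myl7 and Myl4 in the lead. Bambi was detected in 56.8% of cells inside versus 14.6% outside and was higher by 2.77-fold in the authors' deposited table. Id3 was detected in 42.4% of cells inside versus 59.9% outside and was lower by 2.25-fold in the authors' deposited table. Much of the table is listed for this cluster, with 22.7% of all genes higher and 25.7% lower, so 1 gene of 6 in each direction is near those shares. Clusters 2 and 9 made up 15.9% of cells and held 47.7% of the cells that detected Bambi. Its level over the mean of all cells was 3.69 in cluster 9 and 2.26 in cluster 2, a ratio of 1.63. Cluster 13, which made up 0.497% of cells, also had all 9 cardiomyocyte markers listed higher, and it listed none of the 6 genes.

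**Figure D2:**
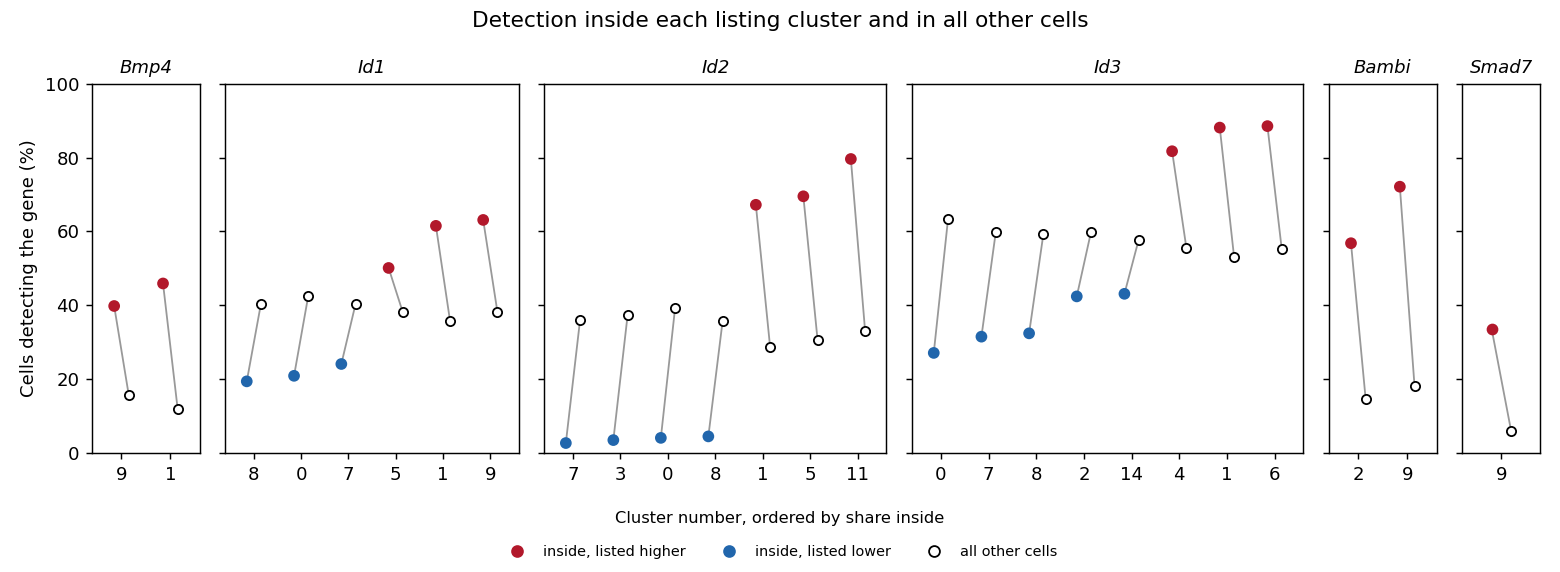
Percentage of cells that detected each gene inside a listing cluster (filled circles, left) and in all other cells (open circles, right), with clusters ordered by the share inside. Id2 was detected in 2.7% to 4.5% of cells in clusters 7, 3, 0 and 8 and in 67.2% to 79.6% in clusters 1, 5 and 11. Clusters without an entry are not drawn, and in the 8 without one for Id2 it was detected in 42.8% of cells pooled.

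The Id genes had 21 of the 26 entries, 9 higher and 12 lower, in 12 of the 15 clusters. All 3 were listed in 4 clusters, higher together in cluster 1 and lower together in clusters 0, 7 and 8. A pair was listed in 1 cluster and a single Id gene in 7. In no cluster were Id genes listed in opposite directions.

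Clusters 0, 7 and 8 were thus the clusters poor in Id transcripts. Clusters 0 and 7 were mesoderm-like by 4 and 5 markers of a nascent mesoderm list and led by the retinoic acid binding gene Crabp1. That list also holds the paraxial mesoderm gene Tcf15, a leading gene of cluster 0. Cluster 8 was pluripotent-like by 5 listed markers and led by Pou5f1. In each of the 3 clusters, 3 of the 6 genes were lower, against 3.76%, 2.84% and 4.26% of all genes in the table. Id1 was detected in 20.9% of cells inside versus 42.5% outside in cluster 0, in the authors' deposited table. The corresponding Id1 shares were 24.1% inside versus 40.3% outside in cluster 7, and 19.4% inside versus 40.4% outside in cluster 8, in the authors' deposited table. Its folds were between 1.80 and 2.09 lower, smaller than those of Id2 and Id3 in the same clusters.

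Id2 was detected in few cells of these clusters. In the authors' deposited table it was detected in 4.1% of cells inside versus 39.3% outside in cluster 0. The shares were 2.7% inside versus 36.1% outside in cluster 7, and 4.5% inside versus 35.7% outside in cluster 8, in the authors' deposited table. Cluster 3, led by the keratin gene Krt8, the streak and notochord factor T and the hormone gene Trh, had the same low Id2, at 3.5% inside versus 37.3% outside in the authors' deposited table. Id2 was the single gene of the 6 listed there, against 3.01% of all genes listed lower in cluster 3. The 4 clusters made up 38.9% of cells and held 4.32% of the cells that detected Id2. Folds lay between 3.48 and 3.64 lower in the authors' deposited table, and levels over the mean of all cells between 0.297 and 0.310, so no order among the 4 can be read. In cluster 3, Id1 and Id3 were not listed. Free RNA in droplets can give a gene a low share of cells, and its level was not measured here.

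Id3 kept a larger share of detecting cells than Id2 in the same clusters while its folds were somewhat smaller. Id2 was detected in only 2.7% to 4.5% of these cells. Any constant added before the logs would compress its folds most, so the losses of Id2 and Id3 cannot be ranked by fold. Id3 was detected in 27.1% of cells inside versus 63.4% outside in cluster 0, and was lower by 3.41-fold, in the authors' deposited table. In cluster 7 the shares were 31.5% inside versus 59.7% outside, and in cluster 8 they were 32.4% inside versus 59.3% outside, with folds of 2.93 lower in both, in the authors' deposited table. Pooled over clusters 0, 7 and 8, which made up 28.5% of cells, 21.4% of cells detected Id1, 3.84% detected Id2 and 29.3% detected Id3. Id3 also had a lower entry in cluster 14, led by the basement membrane genes Col4a1 and Sparc and by Gkn2, at 43.1% of cells inside versus 57.8% outside in the authors' deposited table. This was 1.80-fold lower, 9.19% of all genes were lower in cluster 14, and it was the one entry of the 26 with an adjusted p above 0.05 over cells, 0.566 in the authors' deposited table.

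Outside clusters 1 and 9, different Id genes were listed as higher in different clusters. In cluster 5, mesenchyme-like by 4 markers and led by Sostdc1, Col9a1 and Col3a1, Id1 and Id2 were higher, 2 of the 6 genes against 4.09% of all genes. Id2 was detected in 69.5% of cells inside versus 30.5% outside at 3.34-fold, the largest Id fold upward, in the authors' deposited table. Id1 was detected in 50.1% of cells inside versus 38.1% outside at 1.77-fold in the authors' deposited table. Clusters 1 and 5 together made up 21.8% of cells and held 43.9% of the cells that detected Id2.

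Id2 was also higher in cluster 11, led by Col3a1, Col2a1 and Col1a2 and mesenchyme-like by 3 markers, where only 0.835% of all genes were higher. Detection and level differed in order here. Cluster 11 detected Id2 in 79.6% of cells inside versus 33.0% outside but at 1.65-fold, in the authors' deposited table, and its level over the mean of all cells was 1.63, against 2.78 in cluster 5. Most genes with entries in both clusters were likewise detected in more cells of cluster 11. They were 24 of 25, Id2 included, and the median difference over the 25 was 14.2 percentage points. Of the 8 genes higher in both, Id2 again included, 7 had the lower level in cluster 11. Depth per cell was not used here, and its part in this was not tested.

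Of the 6 genes, only Id3 was listed for clusters 4 and 6, as higher in both. Id1 and Id2 passed the detection threshold there. Each therefore differed from the other cells by less than 1.65-fold or missed the table's p-value limit, and may still have been somewhat higher. Cluster 4 was neural-progenitor-like by 6 markers and led by Ccnd2, Fgf8 and Dbx1, and cluster 6, led by Pcp4l1, Tpbg and Wnt1, had too few markers for a name. In cluster 4, Id3 was detected in 81.7% of cells inside versus 55.5% outside, in the authors' deposited table. Its fold there, 1.66, was just past the limit of 1.65, and 1.92% of all genes were higher. In cluster 6 the shares were 88.5% inside versus 55.2% outside at 2.12-fold, and 2.51% of all genes were higher, in the authors' deposited table. Clusters 1, 4 and 6 made up 29.5% of cells and held 44.2% of the cells that detected Id3.

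**Figure D3:**
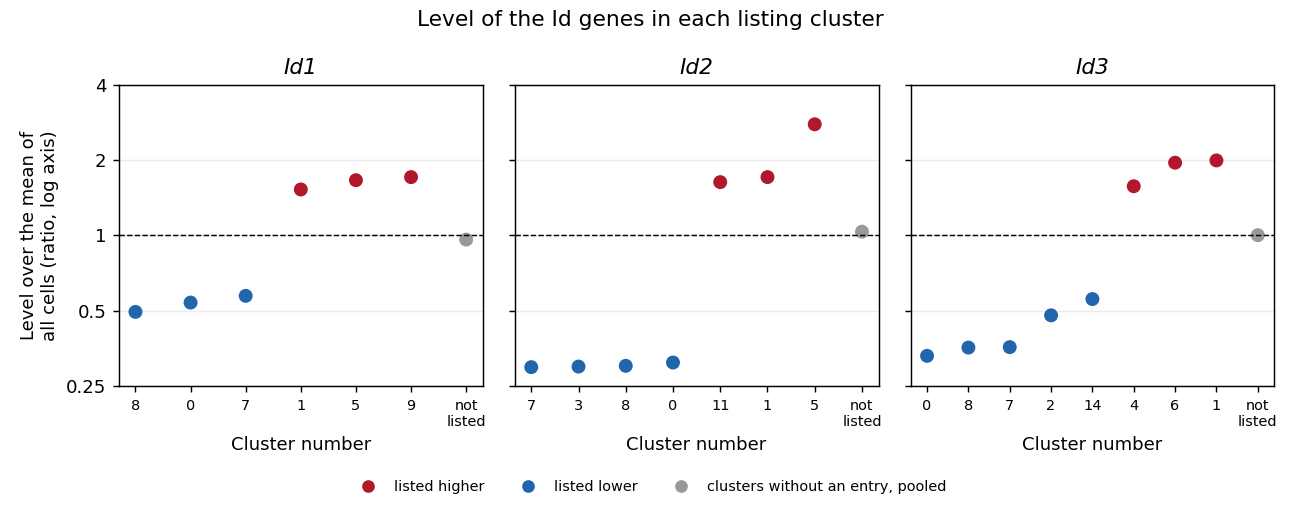
Level of Id1, Id2 and Id3 in each listing cluster as a ratio to the gene's mean over all cells (vertical log axis), with clusters ordered by level within each direction and the pooled clusters without an entry in grey. The dashed line marks the mean of all cells, and the pooled clusters lie between 0.962 and 1.03.

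Among the Id genes and over the clusters that listed them, Id2 varied most. Its highest level, in cluster 5, was 9.37 times its lowest, in cluster 7, and the shares of detecting cells spanned 2.7% to 79.6%. For Id3 the highest level, in cluster 1, was 6.05 times the lowest, in cluster 0, with shares from 27.1% to 88.5%. Id1 varied least of the 3, by 3.46 times between clusters 9 and 8, with shares from 19.4% to 63.1%. A constant added before the logs would compress these ratios most for the least expressed gene. Neighbours in each order lay close together, such as Id1 at 1.66 in cluster 5 and 1.71 in cluster 9, or Id3 at 1.95 in cluster 6 and 2.00 in cluster 1, and without replicates no order was read between them. The gap between lower and higher entries is set by the fold threshold, and the clusters without an entry lie inside it when pooled. Their single levels are not known, since a cluster may also lack an entry through the p-value limit. None of the 6 genes was listed for clusters 10, 12 and 13, led by Col3a1, by the neuronal tubulin gene Tubb3 and by Myl7.

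The wider pathway was read from a list of 52 ligands, receptors, SMADs, targets and antagonists, of which 14 were in the table. Besides the 6 genes, these were 8 genes with 15 entries, 11 higher and 4 lower, beside 59.0% higher over the whole table. For 6 of the 8, all but Acvr2b and Fstl1, detection outside any cluster could not reach 25.1%, so that a lower entry was hardly possible. Of the receptors on the list, 1 was in the table: Acvr2b, an activin receptor that also takes part in BMP signalling, was listed as lower at 1.75-fold for cluster 2 and at 1.82-fold for cluster 14 in the authors' deposited table. Of all genes, 25.7% and 9.19% were lower in these clusters, and the adjusted p over cells of Acvr2b in cluster 14 was 0.492 in the authors' deposited table. None of the activating SMADs was in the table. A second BMP ligand, Bmp7, was higher in cluster 2, at 29.5% of cells inside versus 9.7% outside and 1.71-fold in the authors' deposited table.

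Among the targets, Tbx3, a T-box factor induced by BMP in several embryonic tissues, was detected in 45.3% of cells inside cluster 1 versus 3.2% outside in the authors' deposited table, and 68.4% of the Tbx3-detecting cells lay in cluster 1. Hand1, a bHLH factor of extraembryonic and cardiac mesoderm, was detected in 28.2% of cells inside cluster 9 versus 0.9% outside in the authors' deposited table, and cluster 9 held 51.2% of the detecting cells. Fstl1, a secreted follistatin-like glycoprotein, was listed at 1.82-fold higher for cluster 9 and at 2.21-fold lower for cluster 14 in the authors' deposited table. With the 4 genes described above, cluster 9 had higher entries for 6 of the 14 pathway genes in the table, against 9.61% of all genes. The full list held 52 genes, and Smad7 and Hand1 entered the table only through cluster 9, so this count describes the cluster and tests nothing. The secreted antagonist gene Cer1 was higher in 3 of the 4 clusters with low Id2, at 1.82-fold in cluster 0, 3.43-fold in cluster 3 and 2.05-fold in cluster 7 in the authors' deposited table. Background shares of genes listed higher there were 3.09%, 5.26% and 3.34%. Fst, an activin and BMP binding protein, was higher at 2.07-fold in cluster 0 and at 2.53-fold in cluster 14, where 26.2% of all genes were higher, in the authors' deposited table. Both Cer1 and Fst are on the nascent mesoderm marker list that named clusters 0 and 7. Their entries there are therefore not separate from those names. In cluster 8, Fstl1 was lower at 1.90-fold and no antagonist was listed higher, in the authors' deposited table. Sostdc1, an antagonist of BMP and Wnt signals, was higher in cluster 5, at 33.5% of cells inside versus 2.4% outside, in the authors' deposited table. Cluster 5 had the highest Id2 level, though cluster 11 detected Id2 in more of its cells. Sostdc1 was also higher in cluster 10, at 34.4% inside versus 4.1% outside, in the authors' deposited table. There, 6.85% of all genes were higher.

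**Figure D4:**
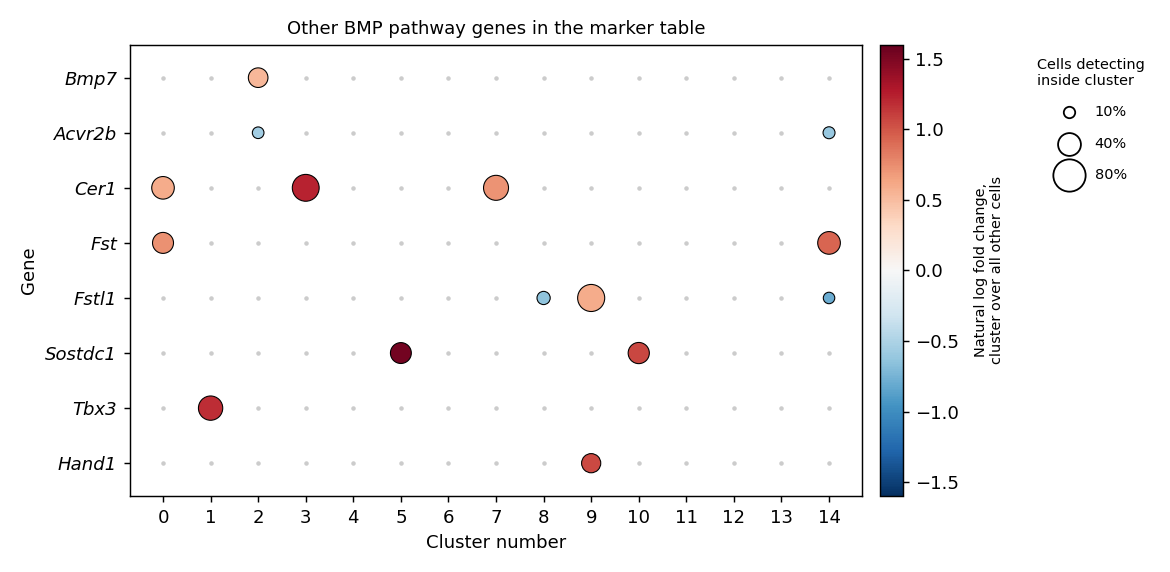
Entries of the 8 other BMP pathway genes (rows) in the 15 clusters (columns), with colour for the natural log fold change of the cluster over all other cells and circle area for the percentage of cells inside that detected the gene. Cer1 is red in clusters 0, 3 and 7, and Tbx3 and Hand1 have 1 entry each, in clusters 1 and 9.

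The bHLH factors were read from a list of 29 genes, of which 8 were in the table. Their entries were 8 higher and 1 lower, beside 59.0% higher over the whole table. For 7 of the 8, all but Tcf3, detection outside any cluster could not reach 25.1%, so these entries could hardly be other than higher. Of the E proteins, the partners that Id proteins bind directly, Tcf3 was lower at 2.03-fold for cluster 2 and Tcf12 higher at 1.90-fold for cluster 10 in the authors' deposited table. Tcf15, a paraxial mesoderm factor, was higher in clusters 0 and 7, both with low Id genes, where 53.8% and 49.5% of the cells inside detected it, in the authors' deposited table. Tcf15 is also on the nascent mesoderm marker list by which both clusters were named. Twist2, a mesenchymal factor, reached 3.04-fold in cluster 5, where Id2 was highest by level but not by detection, in the authors' deposited table. Hand1 was 2.89-fold higher in cluster 9, where Id1 was higher, in the authors' deposited table. Twist1 was 1.79-fold higher in cluster 10, which listed no Id gene, in the authors' deposited table. The neuronal factors Neurog2 and Hes6 were 6.48-fold and 5.69-fold higher in cluster 12, where 7.77% of all genes were higher and no Id gene was listed, in the authors' deposited table.

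The genes with the most similar pattern were found among 190 others listed for 3 or more clusters. Likeness was the number of clusters listing both genes in one direction, less those in opposite directions, divided by the clusters listing either, out of 15. For Id1 the closest was Id2, with 5 of 8 clusters shared and none opposite, a likeness of 0.625, followed by Gabarap, an autophagy gene, at 0.571 and by Tsc22d1, with 3 of 6 clusters shared. Id2 was equally close to Ssbp2 and Id1, both at 0.625, and next to the G1 cyclin gene Ccnd2 at 0.583. Id3 was closest to the imprinted gene Mest, which shared 8 of 10 clusters with none opposite, followed by Tubb2b, a neural tubulin, at 0.700 and the growth factor binding gene Igfbp2 at 0.636. Neither Id1 nor Id2 was among the 3 genes closest to Id3. Bmp4, Bambi and Smad7 had too few entries for this measure.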

How the data were processed

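Single cells were profiled with the 10x V2 chemistry in 4 libraries, 1 per group. Reads were handled with Cell Ranger and Seurat against mm9, per the submitters' processing notes, and the sources used here do not give versions, cell filters, doublet treatment or clustering settings, while depth and cell numbers are unknown, so no counting interval was made. Each entry of the authors' deposited table gives a natural log fold change of a cluster over all other cells, the fraction of cells detecting the gene inside and outside, printed as a percent, and p-values over cells, which are not replicates and served only as a filter. The natural base was checked on 3 genes whose listing clusters hold over 96% of cells: with that base they accounted for 96.3% to 99.5% of expression, against 86.9% to 90.2% with base 2. The largest p-value in the deposited table was 0.00755.

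Folds are exponentials of the deposited values. Relative cluster sizes were solved by least squares from 407 genes listed for 2 or more clusters, so that each gene's share of all cells comes out equal from each entry (the residual SD was 0.0228 percentage points). A level is the ratio to the mean of all cells and includes any constant the authors added before logs. The solving of sizes and levels was run on simulated data with known values. This checks the arithmetic and not whether the deposited folds are ratios of expression. Markers, the pathway lists and the naming rule (members, list genes, 3 leading genes per cluster, 3 most alike genes per Id gene) and the members themselves were chosen with earlier results of these data known. A cluster was named from at least 3 listed markers of one type unless its leading genes spoke for another type. In cluster 8, 4 epithelial markers were also listed higher. Clusters 3 and 14 had most listed markers from the epithelial list, 7 and 6, and were left unnamed. In cluster 3, the leading gene Krt8 is on that list, while T is on the nascent mesoderm list, which had 3 markers higher there. In cluster 14, all 4 extraembryonic endoderm markers in the table were also higher. Calculations used Python 3.11.15 with scipy 1.17.1, pandas 2.3.3 and numpy 2.4.6, and figures matplotlib 3.10.9.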

Additional observations from a re-analysis of the deposited data

How the results depend on the processing

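At a natural log fold of at least 0.75, 7 of the 14 higher and 8 of the 12 lower entries of the 6 genes remained, no cluster listed all 3 Id genes (0, against 4), and the wider pathway had 13 of 25 higher and 9 of 16 lower entries. At a natural log fold of at least 1 there were 3 higher and 7 lower entries of the 6 genes, and again 0 clusters with all 3 Id genes, because every Id1 entry lies under 0.75. Where at least 50% of cells had to detect the gene inside or outside, 11 higher and 5 lower entries were left, and 1 cluster listed all 3 Id genes, as under 50% of cells outside clusters 0, 7 and 8 detected Id1 and Id2. An adjusted p under 0.05 left 14 higher and 11 lower. Solving the cluster sizes by least absolute deviations, without the members or from genes listed for 3 or more clusters left the median level of the higher entries at 1.97 to 1.98 and the median share of detecting cells held at 14.1%. Of 164 single values under the alternatives, 154 moved by under 5% and none crossed the mean of all cells. All 8 levels worked out with cluster 2 taken out of the other cells were among the 10 that moved more. With cluster 2 taken out of the other cells, Bambi was 5.23-fold higher in cluster 9, and Id3 was 1.54-fold higher in cluster 4, a natural log fold of 0.43 that is under the table's threshold. A correlation of folds in place of the overlap kept 6 of the 9 most alike genes. No paired analysis was possible because each group has 1 library and the columns carry no replicate. The table lists only genes past its thresholds, which limits what a missing entry shows.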

Other observations

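The neighbouring Nodal and TGF-beta branch was read from a list of 23 genes. It had 4 genes in the table, with 7 entries. All were higher, but for 3 of the 4, all but Tgfb2, detection outside any cluster could not reach 25.1%, so that a lower entry was hardly possible. Of the 7, 4 lay in cluster 9, where Bmp4, Bambi and Smad7 were also higher and 9.61% of all genes were. There, Tgfb1, a TGF-beta ligand gene, was 2.79-fold higher, Tgfb2 2.49-fold, Tgfbi, a matrix protein gene induced by TGF-beta, 3.35-fold and Ctgf, another induced matrix gene, 2.69-fold, in the authors' deposited table. Tgfb1 and Ctgf entered the table only through cluster 9, so the count there tests nothing. Smad7 is also known to be induced by TGF-beta. Tgfb2 was detected in 59.4% of cells inside cluster 9 versus 21.8% outside, and in 48.6% inside cluster 2 versus 19.4% outside, in the authors' deposited table. These are the same clusters that listed Bambi. Tgfbi was also listed as higher for clusters 5 and 10, at 3.60-fold and 2.14-fold, in the authors' deposited table. Nodal, Lefty1 and Lefty2 were not in the table.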
